A study of Mus musculus with 4 samples.

Results

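Cre-positive epithelial cells were the barcodes of mouse lung tumours that carried an epithelial signature and at least 1 UMI (unique molecular identifier, 1 counted transcript molecule) of the added reference feature Cre. A barcode was taken as epithelial when it held at least 2000 UMIs, at most 20% mitochondrial UMIs, at least 2 UMIs summed over Epcam, Cdh1, Krt8, Krt18 and Cldn18, and none of Ptprc, Cdh5 or Col1a2. The rule found 928 cells, called members here, among 15189 epithelial cells, out of 27399 barcodes past both limits and 29367 barcodes in all. They numbered 52 and 394 in the vehicle-labelled libraries before and after bead depletion, and 82 and 400 in the tamoxifen-labelled libraries before and after depletion. That order, vehicle before and after, then tamoxifen before and after, is kept wherever 4 values are given. The 5 epithelial genes together had medians of 145.5, 167, 176 and 112 UMIs per member, far over the minimum the rule asked for. Values of Cre chose the cells and are given as a description, with no test.

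All mice carried p53frt, Rosa-FSF-CreERT2 and Hnf4aflox and shared 1 further allele that is not reported here, so the vehicle arm has the same alleles as the tamoxifen arm. Tumours were started by intubation with an adenovirus expressing FlpO from the mSPC promoter, and mice received tamoxifen or vehicle at 10 weeks and were collected after a further 2 weeks. In the labels the vehicle is ethanol in one field and corn oil in another. Macroscopic tumours were dissociated, and a portion of each suspension then had CD45 and CD31 cells taken out on magnetic beads. The 4 groups hold 1 library each and come from 2 suspensions, 1 per arm. The labels do not state the number of mice or of tumours behind each suspension. Libraries held from 92644997 to 144994771 UMIs. The floxed gene Hnf4a was higher in the tamoxifen-labelled libraries. In members it stood there at 106 and 103 CPM (UMIs of a gene per 1000000 UMIs of the cells summed), against 75.9 and 71.5 CPM in the vehicle libraries. The reads need not lie in the deleted exons, so this level checks the label only in part. The libraries are called by their label throughout. Between any pair of libraries 10 to 18 barcodes were shared, and no barcode was a member in both.

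Flp is a recombinase that acts at frt sites. In this design it removes a stop cassette before CreERT2 at the Rosa26 locus and deletes p53, so the CreERT2 transcript is a mark of cells that Flp has reached. CreERT2 is a fusion that stays out of the nucleus until tamoxifen binds it, and it then recombines loxP sites such as those in Hnf4a, the gene of a nuclear receptor known from liver and gut epithelium. Alveolar type 2 cells, the cells in which an mSPC promoter is normally active, make surfactant, lysozyme and MHC class II.

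The Cre transcript was sparse, and of 1011 barcodes past both limits that held it 7 had fewer than 2 UMIs of the 5 epithelial genes. Members held 1006 Cre UMIs in all, with 1 UMI in 856 cells, 2 in 68 cells, 3 or more in 4 cells and a highest value of 5. Over all epithelial cells the Cre level was 2.38 CPM (95% exact Poisson interval 1.80 to 3.08), 3.22 (2.93 to 3.54), 3.30 (2.65 to 4.06) and 3.16 (2.87 to 3.47). These intervals, like all intervals here on 1 library, cover counting error only. Immune cells were taken as Ptprc-positive barcodes without any UMI of the 5 epithelial genes. Barcodes with Ptprc and any epithelial UMI were thus in neither class. Among immune cells Cre was seen in 0 of 2573 cells of the vehicle library before depletion, which allows a share of up to 0.117%. In the tamoxifen-labelled library before depletion 1 of 1572 held it, a level of 0.0784 CPM. Immune cells were shallower, with medians of 5832 and 6030 UMIs against 22981 and 25934 in epithelial cells of the same libraries. In endothelial cells 1 of 47 cells of the vehicle library after depletion held a Cre UMI, a level of 2.27 CPM. In the other libraries 0 of 97, 98 and 54 endothelial cells did. Of the fibroblast class 0 of 59, 44, 50 and 43 cells held one. Both classes were small, and their exact Poisson intervals had upper ends from 2.75 to 12.65 CPM. In each library these lie above the epithelial level, so the counts cannot show a lower Cre level in these classes. A further 83 barcodes with a Cre UMI passed both limits and were not members; 64 of them also held Ptprc, and 19 held Cdh5 or Col1a2 only.

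Whether a cell held a Cre UMI followed its depth. The share of epithelial cells with a Cre UMI went from 0%, 1.82%, 2.03% and 1.78% in cells with fewer than 10000 UMIs to 13%, 16.5%, 15.5% and 14.7% in cells with 40000 or more. The Cre level in CPM varied far less with depth in 3 of the libraries. It was at 2.87, 2.69, 3.28 and 3.81 CPM over the 4 depth ranges of the vehicle library after depletion, and 2.82, 3.09, 3.24 and 3.22 CPM over those of the tamoxifen-labelled library after depletion. The tamoxifen-labelled library before depletion gave 4.10, 3.41, 3.25 and 3.25 CPM. The vehicle library before depletion gave 0, 1.42, 2.77 and 2.55 CPM, lower in its shallow cells, where the 0 has an exact interval up to 4.66 CPM. An epithelial cell without a Cre UMI is not a cell shown to lack the transcript. With every cell thinned to 10000 UMIs the share was 2.05% (exact binomial interval 1.15 to 3.36), 2.90% (2.46 to 3.40), 2.97% (1.89 to 4.43) and 3.32% (2.87 to 3.82), against 5.96%, 6.20%, 8.89% and 5.68% unthinned. Thinning left out 140, 1156, 148 and 1347 shallower cells. The 4 thinned intervals overlapped. Of the members, 3 had fewer than 5 UMIs of the 5 gate genes, and no barcode with a Cre UMI missed membership by having 1 such UMI. Another 10 barcodes with a Cre UMI and at least 2000 UMIs lay over the mitochondrial limit. Whether those 10 met the other parts of the rule was not counted.

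**Figure D1:**
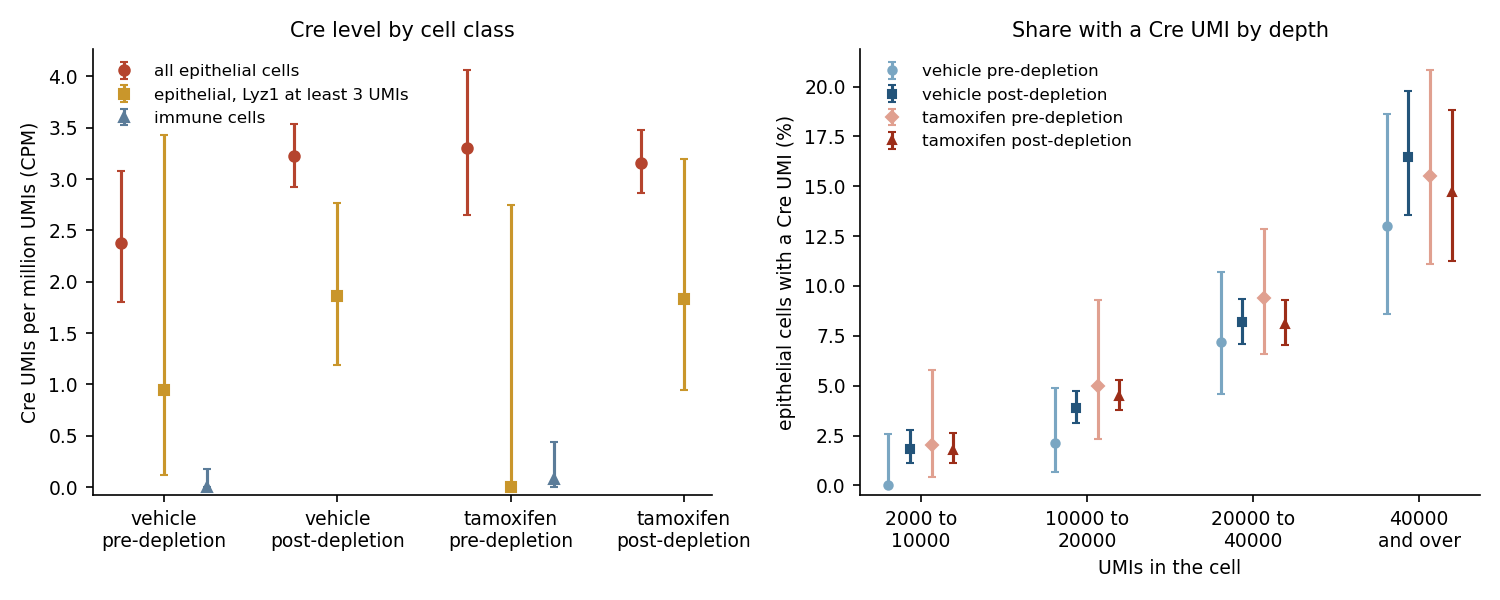
Left, Cre level in CPM (linear axis) in all epithelial cells, in epithelial cells with at least 3 Lyz1 UMIs and, for the libraries before depletion, in immune cells; right, percentage of epithelial cells with a Cre UMI in 4 ranges of UMIs per cell, for the 4 libraries. Bars are 95% exact intervals for counting error, and the share climbs with depth in each library, to between 13% and 16.5% in the deepest range.

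Because depth sets who is a member, each member was compared with 5 epithelial cells without a Cre UMI (Cre-zero) from the same library and of nearest UMI total. Members had median totals of 37895, 27252, 37093 and 22702 UMIs, and the 4640 matched cells 37882, 27218, 37054 and 22700 UMIs. Counts were summed over members and over matched cells of each suspension, which gives 4 sums, and tested with edgeR's quasi-likelihood test with the suspension as a block. The 2 suspensions are the only replicates and leave 1 residual degree of freedom. The test therefore also draws on the spread of all other genes. The p-values rest only in part on a gene's own spread between these suspensions, and do not measure the spread between animals. In a sum over cells, fewer cells with a transcript and less of it per cell cannot be told apart. Of 17108 genes tested, 27 passed a Benjamini-Hochberg adjusted p of 0.05 (0.158%), with 7 higher (0.0409%) and 20 lower (0.117%) in members; an unadjusted p under 0.05 was reached by 690 genes higher and 927 lower. DESeq2 called 47 genes. Members and matched cells were also paired within each of the 4 libraries, with the libraries as blocks. That fit called 0 genes higher and 11 lower of 15286, so no gene called higher in the sums by suspension passed in it. Of the genes described below, immunoglobulin genes aside, it called Scd1, Hc, Lrg1, Fasn, H2-Aa, Scgb1a1 and Mzb1. Leaving out 1 library at a time gave between 12 calls, without the vehicle library before depletion, and 58, without the tamoxifen-labelled library after depletion. In 11 of the 27 a single cell held over 20% of a group's UMIs, so the test was also run with the top cells of each gene left out, a setting chosen after these data were seen. It called 141 of 15973 genes (0.883%), with 58 higher (0.363%) and 83 lower (0.52%), and 17 of the 27 were among them.

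Alveolar type 2 genes were the largest named group, and all of those called were lower in members. Of the 15 genes of that list, all tested, 6 were called lower (Scd1, Lyz1, Lyz2, Hc, Sftpc and Sftpa1) and 0 higher. Their median log2 fold change was -0.39, beside -0.0048 over all genes tested. All 15 estimates were below 0, and 8 of the 15 were lower in each of the 4 libraries, which 5.68% of all genes were. With top cells left out, 15 of 15 were called lower, with a median of -0.41. The count fell to 2 without the vehicle library after depletion and to 2 with the 4 libraries as blocks, and was 5 or 6 without each of the other libraries. Matched on genes detected in place of UMIs, 3 were called. The median ranged from -0.24, without the vehicle library after depletion, to -0.66 against all Cre-zero cells with no depth matching.

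Scd1 (ENSMUSG00000037071, chromosome 19, 44394455 to 44407879, minus strand, GRCm38), which encodes the desaturase that makes monounsaturated fatty acids, stood at 181, 121, 141 and 167 CPM in members and at 514, 237, 421 and 278 CPM in matched cells. The lowest matched library was above the highest member library, so the groups did not overlap. Its log2 fold change was -1.10 (SE 0.05, adjusted p = 7.337e-04). It passed the threshold in each of 17 other settings that kept the 1-UMI rule, with log2 fold changes that stayed below 0, and reached -2.21 when membership needed 2 Cre UMIs. Fasn, the fatty acid synthase, stood at 200, 105, 166 and 152 CPM in members against 241, 139, 227 and 189 CPM (log2 fold change -0.43, SE 0.05, adjusted p = 0.0479), and was chosen for mention after its value was seen. Elovl1, an elongase of long-chain fatty acids, stood at 266, 151, 187 and 217 CPM against 269, 243, 293 and 273 CPM (-0.54, SE 0.05, adjusted p = 0.0185). Both were lower in each library, by a very small margin for Elovl1 in the vehicle library before depletion. Neither call held without the vehicle library before depletion (adjusted p = 0.0861 for both), the vehicle library after depletion (0.827 for Fasn and 1.0 for Elovl1) or the tamoxifen-labelled library before depletion (0.092 and 0.0637).

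Of the list, Lyz1 had the largest difference and Lyz2 one close to that of Scd1. Lyz2, a lysozyme of macrophages and type 2 cells, on chromosome 10 from 117277331 to 117282321, stood at 2298, 1250, 915 and 1014 CPM in members and at 3131, 2419, 2813 and 2149 CPM in matched cells (log2 fold change -1.09, SE 0.09, adjusted p = 0.00964). Members were lower in each of the 4 libraries, with overlap between the vehicle members before depletion and the tamoxifen-labelled matched cells after it. The Lyz2 call was lost without the vehicle library after depletion (-0.90, adjusted p = 0.148) and with the 4 libraries as blocks (-1.10, 0.0626). Lyz1, the neighbouring and closely similar gene at 117287797 to 117292868, stood at 13.2, 83.8, 2.40 and 60.9 CPM in members against 96.4, 238, 273 and 186 CPM (-1.91, SE 0.13, adjusted p = 0.00344). How the authors' counting shared reads between these 2 paralogs is not given in the sources used here, so their split is uncertain. Lyz1 was not called without the tamoxifen-labelled library after depletion (adjusted p = 0.0596), nor once cells with at least 3 Lyz1 UMIs were left out of both groups (-0.30, adjusted p = 0.647). In that same setting Lyz2 was at -0.98, Scd1 at -0.91 and Sftpc at -0.39, each still past the threshold, and 6 genes of the list were called.

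Surfactant genes moved by less. Sftpc, the surfactant protein C gene whose promoter the adenovirus used, was the most abundant gene of the list, at 44070, 40800, 47630 and 53730 CPM in members and 51320, 54710, 66210 and 66560 CPM in matched cells. It was lower in each library, and its log2 fold change was -0.43 (SE 0.03, adjusted p = 0.00344). Sftpa1 stood at 6869, 4607, 6216 and 5950 CPM against 6224, 6373, 7586 and 7308 CPM (-0.39, SE 0.04, adjusted p = 0.0159), and was higher in members of the vehicle library before depletion. Neither call held without the vehicle library after depletion (adjusted p = 1.0 for each) or the tamoxifen-labelled library after depletion (0.0573 for Sftpc and 0.055 for Sftpa1), and that of Sftpa1 was also lost without the vehicle library before depletion (0.0801). Sftpb, Sftpd and the lamellar body genes Abca3 and Lamp3 lay between -0.18 and -0.30 and did not pass, with adjusted p from 0.162 to 0.267. Nkx2-1, the lung lineage factor, and Cebpa, a regulator of type 2 cells, were at -0.13 and -0.16 and did not pass either (adjusted p = 0.495 and 0.429).

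**Figure D2:**
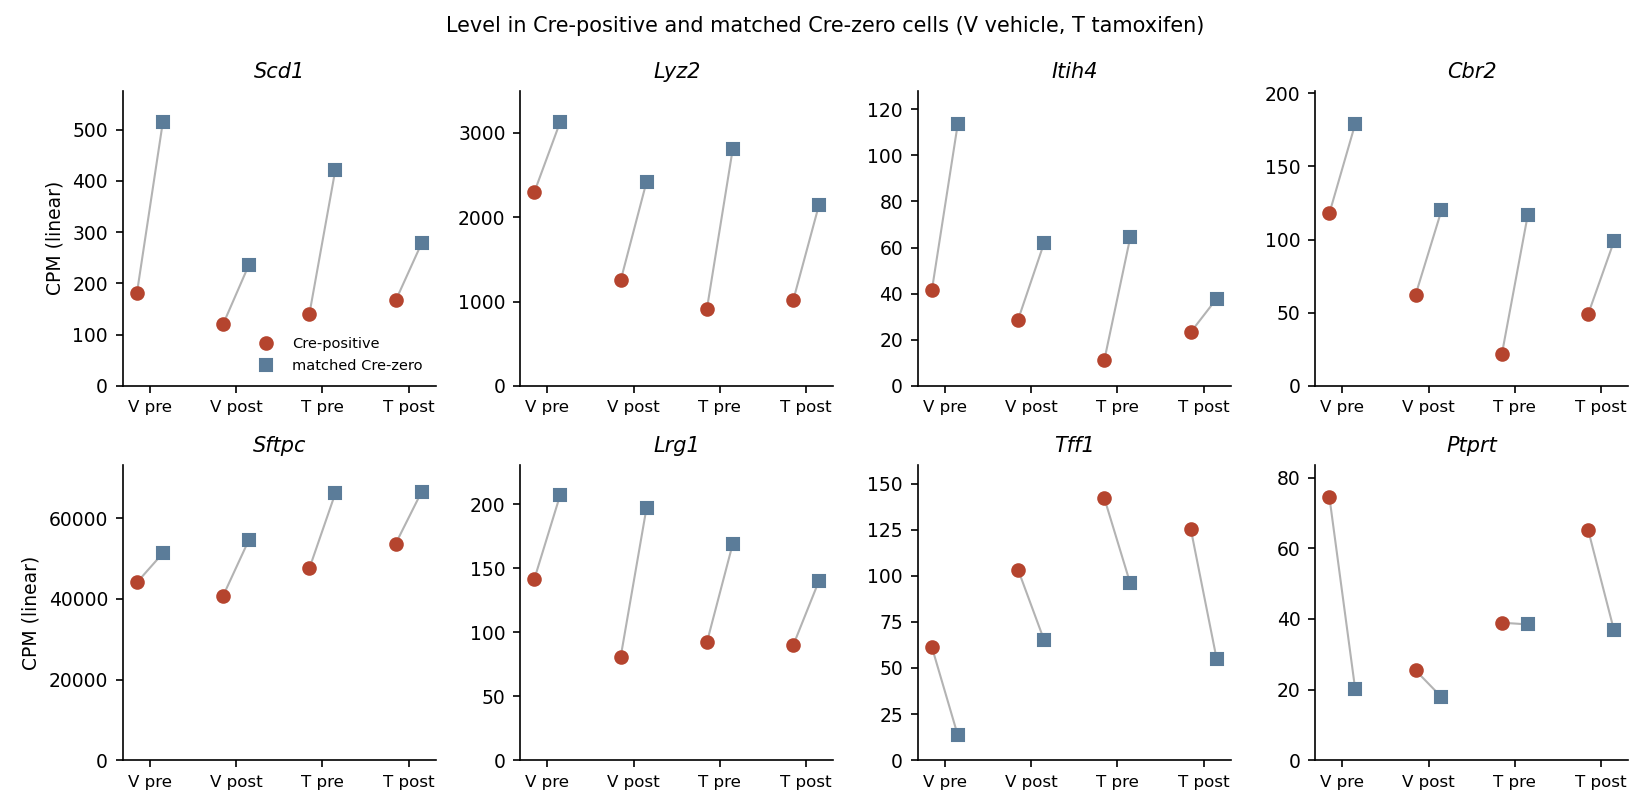
Level in CPM (linear axes from 0) of 8 named genes in Cre-positive cells (circles) and depth-matched Cre-zero cells (squares) of each library, joined by a line (V vehicle, T tamoxifen; pre and post are before and after depletion). Scd1, Lyz2, Itih4, Cbr2, Sftpc and Lrg1 are lower in Cre-positive cells of each library, and Tff1 and Ptprt are higher, by 38.9 against 38.4 CPM for Ptprt in the tamoxifen-labelled library before depletion.

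Plasma and complement protein genes were also among those lower in members. Itih4, an inter-alpha-trypsin inhibitor heavy chain made as an acute-phase protein by the liver, stood at 41.5, 28.8, 11.4 and 23.3 CPM against 114, 61.9, 64.4 and 37.8 CPM (log2 fold change -1.22, SE 0.07, adjusted p = 0.00118). It passed in 16 of 17 other settings and missed with the 4 libraries as blocks (-1.34, adjusted p = 0.0838). Lrg1, a secreted leucine-rich glycoprotein, stood at 142, 80.7, 92.2 and 89.8 CPM against 208, 197, 169 and 140 CPM (-0.99, SE 0.09, adjusted p = 0.0185), and missed without the vehicle library before depletion (0.0959). Cbr2, a carbonyl reductase abundant in lung, stood at 118, 62.4, 21.9 and 49.1 CPM against 179, 120, 117 and 99 CPM (-1.13, SE 0.10, adjusted p = 0.0153), and missed with the 4 libraries as blocks (0.155) and when matched on genes detected (0.104). Matched in that way Lrg1 missed too (0.258). All 3 genes were lower in each library. The complement genes Hc, which encodes C5 and is also on the type 2 list, and C3 were at -0.72 and -0.70 (adjusted p = 0.0185 and 0.0479). Without the vehicle library after depletion both calls were lost (0.186 for each), and that of C3 was also lost without either library from before depletion (0.0959 for vehicle and 0.258 for tamoxifen). The fixed list of 17 hepatic plasma protein genes did not share this. Of its 15 tested genes 0 were called, with a median of -0.11.

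Antigen presentation genes leaned the same way by a smaller step. Of 7 MHC class II genes, all tested, 1 was called lower, with a median log2 fold change of -0.31, and 5 were lower in each library. H2-Aa, an alpha chain, stood at 294, 208, 250 and 228 CPM against 351, 292, 327 and 283 CPM (-0.45, SE 0.05, adjusted p = 0.0376). Cd74, the invariant chain, was at -0.34 (adjusted p = 0.0502). With top cells left out 5 of 7 were called. No gene of the list was called without the vehicle library before depletion, the vehicle library after depletion or the tamoxifen-labelled library before depletion, in which H2-Aa had an adjusted p of 0.0861, 0.886 and 0.0689.

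Lyz2, C3 and the MHC class II genes are also made by macrophages, so the immune marker list was read beside them. Its 18 genes summed to 102, 29.1, 103 and 22.9 CPM in members and 116, 25.6, 185 and 17.2 CPM in matched cells, and 0 of 15 tested genes were called (median log2 fold change -0.39). After depletion the list as a whole was not at 0, and its sum was higher in members (29.1 and 22.9 CPM) than in matched cells (25.6 and 17.2 CPM). Of its genes, the macrophage genes C1qa, C1qb and C1qc were at 0 in members there and at most at 0.0681 CPM in matched cells. The members' sum there thus came from the other genes of the list. The C1q genes do not stand for its other macrophage genes, such as Marco and Mrc1. Lyz2 stood there at 1250 and 1014 CPM against 2419 and 2149 CPM. The 9 endothelial markers summed to between 37.7 and 63.6 CPM in members and between 35.9 and 52.4 CPM in matched cells, with 0 of 6 tested called. The 8 fibroblast and mural markers summed to between 39.7 and 303 CPM in members and between 89.5 and 106 CPM in matched cells, with 0 of 6 called. The highest of those values, in the tamoxifen-labelled library before depletion, came mostly from Mgp at 206 CPM. Ptprc, Cdh5 and Col1a2 are at 0 by the rule. Whether traces of other cells had a part in the differences was not tested.

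**Figure D3:**
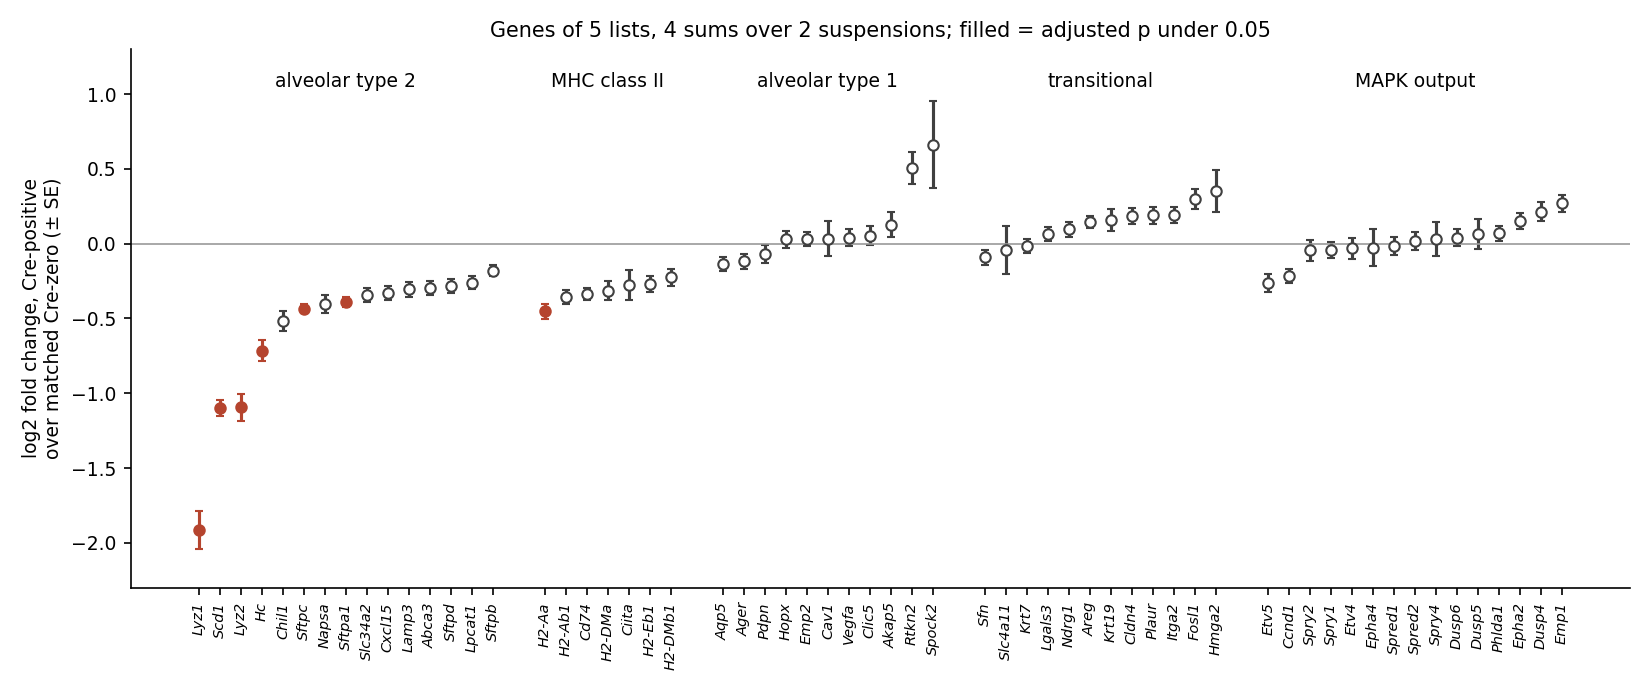
Log2 fold change of Cre-positive over depth-matched Cre-zero cells (points) with its standard error (bars) for the tested genes of 5 lists, from 4 sums over 2 suspensions; filled points have an adjusted p under 0.05. All 15 alveolar type 2 and all 7 MHC class II genes lie below 0, with 6 and 1 of them filled, and no gene of the other 3 lists is filled.

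Fewer genes were called higher than lower in members, 7 against 20, and no list held more than 1 of the 7. With 1 matched cell per member the order turned, with 40 called higher and 28 lower. Apart from any test, 16.1% of all genes tested were higher in members in each of the 4 libraries and 5.68% were lower. Tff1, a trefoil peptide of gastric mucus, stood at 61.4, 103, 142 and 126 CPM in members and 13.6, 65.2, 95.8 and 55.1 CPM in matched cells, higher in each library with overlap between libraries (log2 fold change 0.82, SE 0.07, adjusted p = 0.0115). Tff1 was seen in 71 of the 928 members. Its call was lost without the vehicle library before depletion (adjusted p = 0.0801). It was also lost with 1 matched cell per member and with the 4 libraries as blocks. When members needed 2 Cre UMIs, its estimate was -4.50 and passed the threshold in the opposite direction (adjusted p = 2.507e-04). Tff1 was the only one of 13 tested gastrointestinal genes called; the stomach genes Gkn2 and Ctse were at -0.06 and 0.37 and did not pass (adjusted p = 0.851 and 0.131). Ptprt, a receptor-type tyrosine phosphatase, stood at 74.6, 25.4, 38.9 and 65.2 CPM against 20.01, 17.9, 38.4 and 36.7 CPM (0.69, SE 0.08, adjusted p = 0.0425). Tiam2, an activator of Rac, stood at 49.9, 35.6, 11.4 and 35.2 CPM against 21.3, 23.7, 13.5 and 18.1 CPM (0.68, SE 0.08, adjusted p = 0.0376), lower in the tamoxifen-labelled library before depletion. Neither call held without the vehicle library before depletion (0.135 and 0.133), the vehicle library after depletion (0.186 and 0.0823) or the tamoxifen-labelled library after depletion (0.446 and 0.586).

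Hist1h2ap, a replication-dependent H2A histone with near-identical copies that make its count uncertain, was at 22.1, 5.10, 26 and 25.5 CPM against 10.4, 2.66, 3.59 and 10.7 CPM (log2 fold change 1.23, SE 0.15, adjusted p = 0.0479), and was not called without the vehicle library before depletion (0.13) or the tamoxifen-labelled library after depletion (0.0596). Hist1h1b, another histone gene, was at 1.42 and did not pass (adjusted p = 0.235), nor did the secreted factors Inhba at 0.96 (0.315) and Igfbp3 at 0.63 (0.171). Those 3 were named as the largest of the genes with at least 20 CPM that were higher in each library. Of the cell cycle lists, 0 of 15 genes of G2/M and 0 of 14 of S phase were called, with medians of 0.15 and 0.14.

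Several calls rested on few cells. Scgb1a1, the club cell secretoglobin, had the largest fall (-5.09, adjusted p = 3.283e-07), but 1 matched cell held 54.8% of the matched UMIs, and with top cells left out it stood at -0.39 (adjusted p = 0.145). The plasma cell gene Mzb1 and 3 immunoglobulin genes (Igkc, Jchain and Igha) were lower in members of both libraries from before depletion, and 1 cell again held from 54.5% to 68.1% of the matched UMIs. Mzb1 was not called without the vehicle library before depletion (adjusted p = 0.226). Ctla2a and Fabp4 were at -2.27 and -1.46, with 1 cell at 33.3% and 43.8% of the matched UMIs, and at 0.20 and 0.65 with top cells left out, both short of the threshold (adjusted p = 0.882 and 0.207). Without the vehicle library after depletion neither was called (1.0 and 0.886), nor was Ctla2a without the vehicle library before depletion (0.0547). Spp1, osteopontin, was called higher at 0.64 yet was higher in 2 libraries and lower in the other 2, at 2088, 415, 33.5 and 501 CPM against 209, 426, 147 and 288 CPM. It was at -0.37 without the tamoxifen-labelled library after depletion, 0.22 without the vehicle library before depletion and 1.88 without the vehicle library after depletion, none past the threshold (adjusted p = 0.886, 0.657 and 0.426). Mucl3, a mucin-like gene, was at 1.38 (adjusted p = 0.048) with 26.2% of the members' UMIs in 1 cell and 0.44 with top cells left out (0.412). It was not called without the vehicle library before depletion (0.439) or the tamoxifen-labelled library after depletion (0.0552).

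The other lists gave no calls. Among 12 genes of the transitional state that type 2 cells pass through, 0 were called, and their median was 0.15; Cldn4 and Krt7, its usual markers, were at 0.18 and -0.02. Of 11 tested alveolar type 1 genes, which mark the flat gas-exchange cells, 0 were called (median 0.03), and Ager, the best known of them, was at -0.12. None of 15 genes of MAPK output, the feedback and target genes of that kinase cascade, was called (median 0.02), nor were any of 12 tested p53 targets (median -0.02). Hmga2, an oncofetal chromatin protein of the transitional list, was at 0.35 (adjusted p = 0.517), and at 0.52 with top cells left out, where it passed (0.00183). Of the engineered loci, Trp53 was at -0.02 and Hnf4a at 0.13, neither past the threshold (adjusted p = 0.933 and 0.54). Gt(ROSA)26Sor, the transcript at the locus that holds CreERT2, stood at 10.6, 17.1, 12.3 and 18.9 CPM in members and at 8.11, 16.8, 8.82 and 18.6 CPM in matched cells. Its neighbour Setd5 stood at 319, 297, 280 and 280 CPM against 265, 258, 222 and 245 CPM. Setd5 was higher in each library, as were 16.1% of all genes tested, and did not pass (0.15, adjusted p = 0.409). The added features flpO, GFP and Tdtomato were at 0 UMIs in members, which allows up to 0.251 to 1.32 CPM per library. Among matched cells 1 cell of the vehicle library after depletion held 41 flpO UMIs.

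Shares of cells over fixed marker thresholds placed the members among the tumour's epithelial states. These shares come from 1 library each, with exact binomial intervals, and were not tested. Cells with at least 3 Lyz1 UMIs made up 3.85%, 5.58%, 0% and 3.00% of members and 8.85%, 10.2%, 5.85% and 5.45% of matched cells. Members were lower in each library, with intervals that did not overlap in the vehicle library after depletion (3.53 to 8.33 against 8.95 to 11.7). Among all epithelial cells the Cre level was 0.949, 1.86, 0 and 1.83 CPM inside that Lyz1 threshold and 2.52, 3.37, 3.47 and 3.23 CPM outside it. This reads the same Cre and Lyz1 counts from the other side and is no separate support. The Poisson intervals overlapped in the vehicle library before depletion (0.115 to 3.43 against 1.90 to 3.28). They also overlapped in the tamoxifen-labelled library after depletion (0.946 to 3.20 against 2.92 to 3.55). Cells with at least 2 UMIs of Unc13c, a gene of synaptic vesicle priming, made up 34.6%, 47.7%, 26.8% and 19.8% of members against 28.1%, 33.6%, 16.3% and 21.6%. The gap was widest in the vehicle library after depletion (42.7 to 52.8 against 31.5 to 35.7) and lay the other way in the tamoxifen-labelled library after depletion. Cells with at least 5 UMIs of Dlk1 and Bpifa1 together were 25%, 22.3%, 40.2% and 47.5% of members against 31.2%, 30.3%, 43.7% and 43.8%, so the vehicle members were lower and the tamoxifen-labelled members after depletion were higher. Both thresholds at once were met by 3.85%, 10.7%, 11% and 7.0% of members, and neither by 44.2%, 40.6%, 43.9% and 39.8%. At least 5 UMIs of Cldn4 and Krt7 were held by 61.5%, 74.1%, 75.6% and 61.3% of members against 65.8%, 70.5%, 60.7% and 57.7%. At least 2 Zmat4 UMIs were held by 48.1%, 38.3%, 46.3% and 45.3% against 46.5%, 39.9%, 48.5% and 44.5%, within 3 points in each library. At least 5 UMIs of Ager, Rtkn2, Akap5 and Aqp5, alveolar type 1 genes, were held by 92.3%, 86.5%, 89.0% and 85.8% of members and by 93.5%, 90.9%, 92.2% and 88.1% of matched cells, so most cells of both groups passed and members were lower in each library. At least 2 Pyy UMIs were held by 3.85%, 1.27%, 6.10% and 3.75% of members against 1.15%, 0.863%, 1.22% and 2.90%. Members thus spread over each of the 11 thresholds, apart from the Lyz1 threshold in the tamoxifen-labelled library before depletion, where 0 of 82 allows up to 4.40%.

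**Figure D4:**
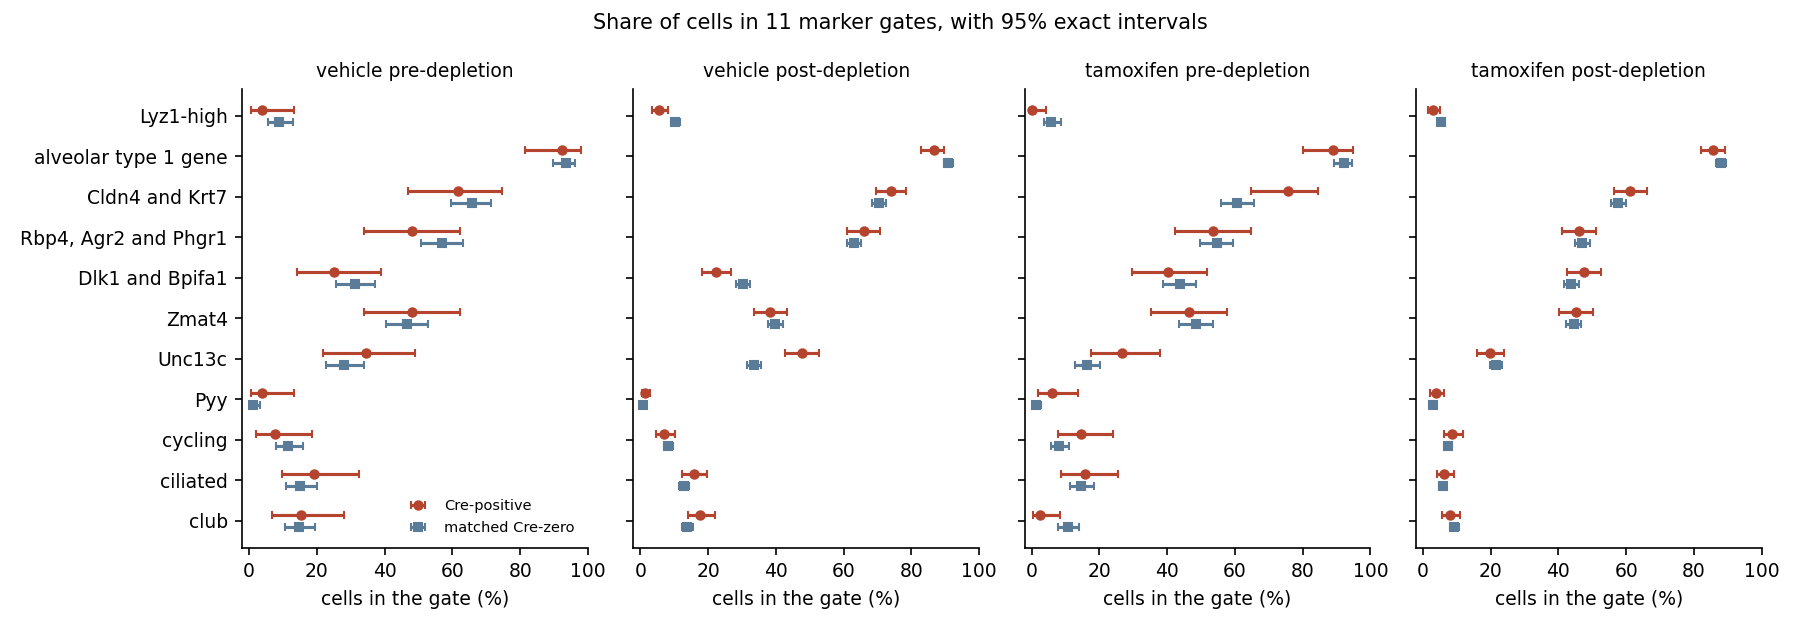
Percentage of Cre-positive cells (circles) and depth-matched Cre-zero cells (squares) of each library that pass 11 marker thresholds, with 95% exact binomial intervals for counting error. Cre-positive cells are lower for Lyz1-high in each panel and higher for Unc13c in 3 of 4 panels, by most in the vehicle library after depletion (47.7% against 33.6%).

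The remaining comparison was between treatment labels among members. It has 1 library per group and no test. The pair of libraries from before depletion and the pair from after it each gave a log2 ratio of tamoxifen over vehicle (pseudocount 1 CPM). A gene with 10 CPM or more on either side of each pair was called apart if both ratios passed 2-fold in the same direction. Of 9189 genes considered, 196 were apart (2.13%), with 44 higher and 152 lower in the tamoxifen-labelled libraries. Among matched Cre-zero cells 138 of 9055 were apart (1.52%). The 2 lists shared 95 genes the same way, which is 48.5% of the members' list and 68.8% of the matched cells' list, and 0 genes in opposite directions. Both comparisons rest on the same 4 libraries. Since the genes named below were picked by their ratio in members, a larger ratio there than in matched cells is partly fixed by that choice. A lack of overlap between the vehicle and tamoxifen-labelled libraries is also partly fixed by the 2-fold rule. Its share among all genes considered was not counted.

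Hnf4a, the floxed gene on chromosome 2 from 163506808 to 163572910, checks the treatment label in part. In members its levels, given above, were above the vehicle level in both tamoxifen-labelled libraries, so it was higher, not lower, after the treatment that should delete it. The log2 ratio was 0.48 (exact interval 0.21 to 0.75) before depletion and 0.52 (0.39 to 0.66) after it. Matched cells gave 0.40 and 0.46, from 70.5, 63.6, 92.9 and 87.3 CPM. A UMI of Hnf4a was held by 44.2%, 61.2%, 62.2% and 57.3% of members. The reads are 3′ tags and need not lie in the deleted exons, so a shortened transcript would still be counted, and the label goes unchecked where that is so. With at least 2 Cre UMIs the ratio was 1.65 before depletion, from only 5 vehicle and 6 tamoxifen-labelled cells. After depletion it was -0.31, from 37 and 24 cells.

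Genes higher in the tamoxifen-labelled members included secreted gut and airway products. Dlk1, an imprinted membrane protein of the Notch ligand family (chromosome 12, 109452823 to 109463336), went from 193 and 234 CPM in the vehicle members to 921 and 1308 CPM, log2 ratios of 2.25 and 2.48; in matched cells the ratios were 1.246 and 1.07. Bpifa1, a secreted protein of the airway lining, was at 111, 61.8, 462 and 484 CPM, log2 ratios of 2.05 and 2.95. The vehicle and tamoxifen-labelled libraries did not overlap for either gene, which is partly fixed by the 2-fold rule. Pyy, the gut hormone peptide YY, was at 7.06, 6.19, 416 and 121 CPM (5.69 and 4.09), but it was seen in 47 members and 1 cell held 31.7% of its UMIs. Cym, the stomach protease chymosin, was at 0, 0.502, 91.9 and 44.6 CPM from 23 members, with 54.8% of its UMIs in 1 cell; the 0 in the vehicle library before depletion allows up to 1.32 CPM. The metalloprotease Adamts18 was at 4.41, 4.85, 37.4 and 44.2 CPM (2.83 and 2.95) and was spread over 194 members. Aspa, Sdk1, Nod1, Cyp1b1 and Ogfrl1 had log2 ratios between 1.71 and 2.51. Nod1, a sensor of bacterial peptidoglycan, was seen in 155 members and Ogfrl1 in 496.

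Genes lower in the tamoxifen-labelled members included ion channel, adhesion and liver-type genes. Kcnh7, a voltage-gated potassium channel, was at 45.0, 40.6, 0.898 and 1.67 CPM, log2 ratios of -4.60 and -3.96. Adgrl3, the adhesion receptor latrophilin 3, was at 293, 182, 4.19 and 18.2 CPM (-5.82 and -3.25), beside 73.9, 113, 9.39 and 16.1 CPM in matched cells. Kctd16, an auxiliary subunit of GABA-B receptors, was at 21.6, 17.0, 0 and 0.393 CPM, where the 0 allows up to 0.898 CPM. In each of these genes both vehicle libraries were above both tamoxifen-labelled libraries, which is partly fixed by the 2-fold rule. Gap43, a growth cone protein, was at 49.9, 47.4, 2.99 and 5.10 CPM (-3.67 and -2.99), and Slc11a1, a metal ion transporter, at 17.2, 14.3, 0.299 and 0.294 CPM (-3.81 and -3.56). Plac8 was at 33.6, 84.2, 2.69 and 5.50 CPM (-3.23 and -3.71), with nearly the same ratios in matched cells (-3.24 and -3.38). Smim6 and Calml4, a calmodulin-like protein of the brush border, had log2 ratios from -4.20 to -3.06.

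**Figure D5:**
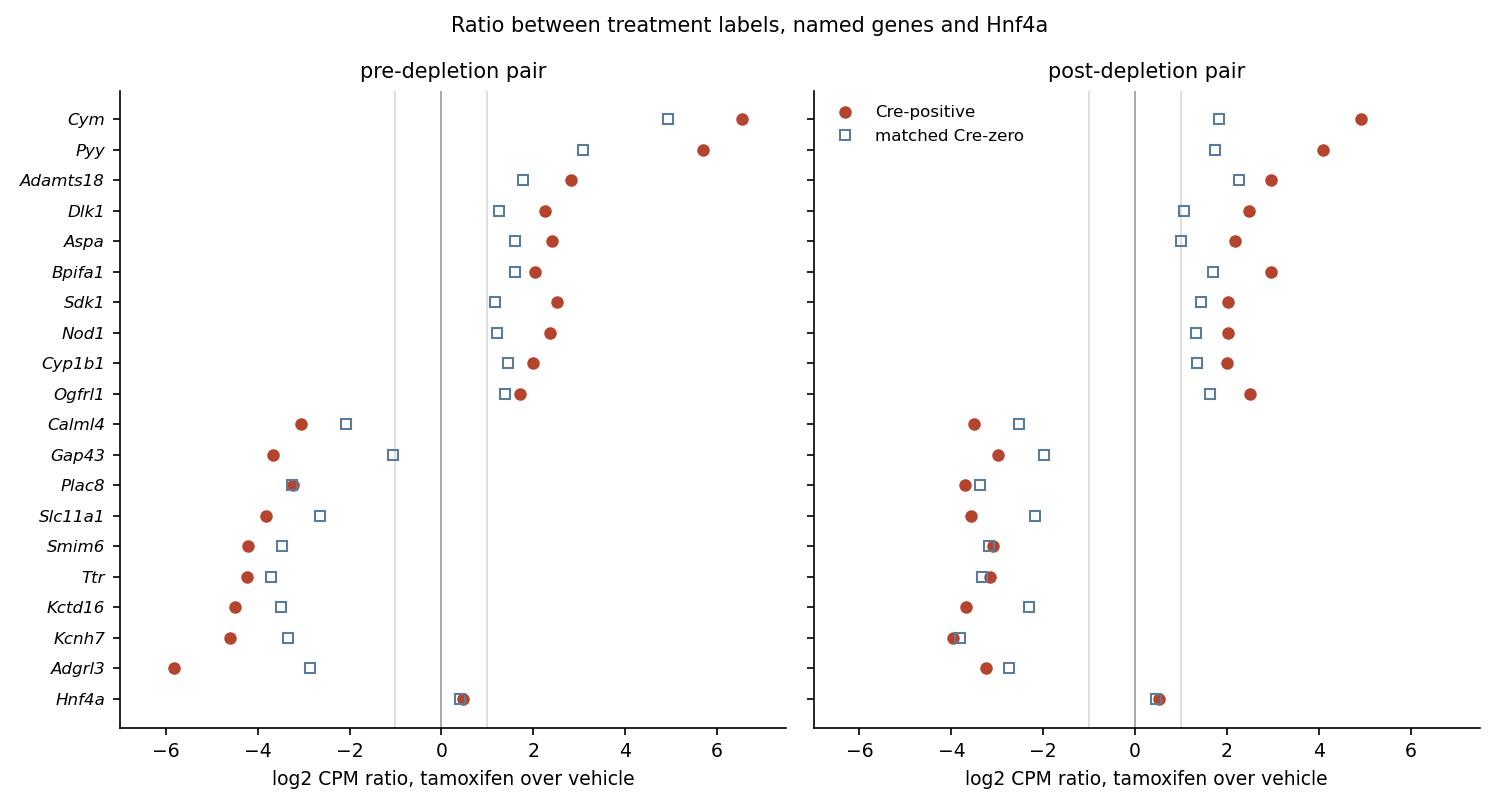
Log2 CPM ratio of tamoxifen over vehicle in Cre-positive cells (filled circles) and depth-matched Cre-zero cells (open squares). The pair from before depletion is on the left and that from after it on the right. Shown are the 10 genes highest and 9 of the 10 lowest by the naming rule (pseudocount 1 CPM) and Hnf4a (no pseudocount). Light lines mark 2-fold. Each plotted gene lies on the same side in members and matched cells, and Hnf4a lies between 0.40 and 0.52 in all 4 comparisons.

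Among the fixed lists the hepatic plasma proteins held the most genes apart. Of 8 considered genes 5 were lower and 1 higher, with median log2 ratios of -1.61 and -1.58, beside -0.02 and 0.01 over all genes considered. Ttr, the thyroid hormone carrier transthyretin, was at 74.2, 80.3, 2.99 and 8.15 CPM (-4.23 and -3.15). Alb, albumin, was at 109, 154, 30.2 and 53.0 CPM (-1.82 and -1.52), Rbp4, the retinol carrier, at 447, 628, 162 and 201 CPM (-1.46 and -1.64), Apoa1 at 38.0, 97.2, 10.5 and 25.2 CPM and Gc, the vitamin D carrier, at 28.7, 18.4, 1.20 and 1.57 CPM. Itih2 was the 1 gene higher, at 16.8, 32.6, 89.5 and 96.0 CPM (2.35 and 1.53). In these 6 genes the vehicle and tamoxifen-labelled libraries did not overlap in members, which the 2-fold rule that picked them makes likely. The same 6 genes moved the same way in matched cells, so the direction was not particular to members. There Ttr stood at 58.4, 89.2, 3.53 and 7.98 CPM, Rbp4 at 447.5, 590, 185 and 215 CPM and Itih2 at 41.8, 34.3, 99.5 and 84.1 CPM. Of 9 considered gastrointestinal genes 4 were lower (Vil1, Lgals4, Anxa10 and Agr2) and 1 higher (Cym), while Gkn2 was not apart. Agr2, a disulphide isomerase of mucus cells, was at 94.5, 186, 12.9 and 37.5 CPM (-2.78 and -2.28), beside 106, 184, 24.9 and 62.9 CPM in matched cells. Of 15 alveolar type 2 genes 1 was lower, Napsa, the surfactant-processing protease, at 631, 578, 260 and 275 CPM (-1.27 and -1.07). Hmga2 was lower at 169, 122, 11.7 and 56.9 CPM, as was Cdh2, N-cadherin, at 38.0, 14.4, 0.299 and 5.30 CPM. Of 15 MAPK output genes 1 was higher, the receptor Epha4, at 49.9, 55.6, 153 and 114 CPM. Scgb3a2, an airway secretoglobin, was at 196, 265, 2.69 and 68.6 CPM in members and at 105, 177, 150 and 90.8 CPM in matched cells, so that its pair from before depletion ran in opposite directions in the 2 cell groups (-5.74 and 0.51). No MHC class II, p53 target, alveolar type 1 or cell cycle gene was apart.

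The libraries of an arm from before and after depletion are portions of 1 suspension, so both pairs rest on the same 2 suspensions and give no measure of the spread between animals. Treatment, mouse and tumour cannot be told apart in this design.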

How the data were processed

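The 4 single-cell libraries were made with 10x 3′ chemistry. The deposited matrices hold UMI counts per feature and barcode, which the authors made with Cell Ranger, version 7.0.1 per the file headers and 7.2.0 per the submitters' processing notes, on mm10. Whether intronic reads or strand were used is not given in the sources used here. Positions come from GENCODE M21 (GRCm38), matched to 32158 of 32289 feature identifiers.

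Members were compared with 5 Cre-zero epithelial cells each, of nearest UMI total in the same library, without replacement. Summed counts (4 sums) were tested with edgeR 4.0.16 in R 4.3.3 (glmQLFit and glmQLFTest, TMM, filterByExpr, suspension as block, Cre left out), with Benjamini-Hochberg adjustment over all genes tested and a threshold of 0.05. DESeq2 1.42.0 was an alternative; it gave no adjusted p for 4312 genes. Treatment labels were compared by log2 CPM ratios with exact conditional binomial intervals. Shares have Clopper-Pearson intervals and levels exact Poisson intervals, at 95%; a count of 0 allows up to 3 counts. Python 3.11.15, scipy 1.17.1, scanpy 1.11.5 and matplotlib 3.10.9 were used. The test was tested on simulated data. Doublets were kept: Scrublet's own threshold called 178, 0, 0 and 0 cells and was taken to have failed, so a score over 0.25 served as an alternative only.

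The genes named for members against matched cells were the 15 largest differences in each direction past the threshold, filled to 10 with genes of at least 20 CPM and the same sign in all 4 libraries, and between labels the 10 largest each way by the smaller ratio. Mitochondrial, ribosomal, immunoglobulin, sex-linked marker and uncharacterised genes and those of the membership rule were left out of naming, and any gene of the 21 lists could be named. A few genes that the rules would name are not reported here. The members, lists and 11 marker thresholds were chosen with earlier results of these data known. Of the lists the report does not otherwise describe, interferon genes (9 tested), airway genes (10), peptide hormone genes (5), mesenchymal genes (9), immediate early genes (15) and lineage regulators (15) had median log2 fold changes of -0.54, -0.54, -0.39, 0.20, 0.00 and -0.03 in members against matched cells, with 0 called apart from Scgb1a1 of the airway list.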

Additional observations from a re-analysis of the deposited data

Results flagged for a closer look

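The summed levels of the 21 lists, where a ratio could be formed, and the shares over the 11 marker thresholds were looked through. In 4 of these measures the members stood below their matched cells in both vehicle libraries and above them in both tamoxifen-labelled libraries, or the reverse. How many of that many measures would do so by coincidence was not worked out. With 1 library per group the difference between the labels was not tested, and the libraries of a label share a suspension.

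The summed level of the alveolar type 1 list, members over matched cells, had log2 ratios of -0.05073, -0.005875, 0.1556 and 0.005752, so the values after depletion were close to 0. The summed gastrointestinal list, which is led by the stomach gene Gkn2, had log2 ratios of -0.2734, -0.09485, 0.5252 and 0.1003.

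The share of cells with at least 5 UMIs of the cycling genes Mki67, Top2a, Cdk1, Ccnb1, Cenpf and Ube2c differed by -3.846, -1.218, 6.585 and 1.4 percentage points, from 7.69%, 7.11%, 14.6% and 8.75% of members. The share with at least 5 UMIs of the club cell genes Scgb1a1, Scgb3a1, Scgb3a2 and Cyp2f2 differed the other way, by 0.7692, 3.909, -8.293 and -1.25 points, from 15.4%, 17.8%, 2.44% and 8.0% of members.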

How the results depend on the processing

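The count of 27 genes called between members and matched cells became 68 with 1 matched cell per member, 226 against all Cre-zero cells, 14 matched on genes detected, 16 with an epithelial sum of at least 5, 81 with at most 10% mitochondrial UMIs, 11 with the 4 libraries as blocks, 47 by DESeq2, 205 with no low-count filter and 141 with top cells left out, an alternative chosen after seeing the data. Leaving out a library gave 12 to 58. The median of the alveolar type 2 list was -0.2942 with 1 matched cell per member and -0.6604 unmatched. The 196 genes apart between labels became 462 with at least 2 Cre UMIs, 130 with a pseudocount of 5 CPM, 404 with no CPM minimum, 82 with a minimum of 30 CPM and 43 at a log2 ratio of 2. The share of cells with a Cre UMI was 5.963%, 6.198%, 8.894% and 5.683% unthinned, 4.628%, 6.604%, 6.734% and 5.414% thinned to 20000 UMIs, and 1.521% and 1.381% after depletion when thinned to 5000 UMIs. With at least 2 Cre UMIs, which leaves 72 cells, Hnf4a stood at 1.654 before and -0.3135 after depletion. In that setting the direction turned for Mucl3 (-4.2099), Tff1 (-4.5014), Spp1 (-1.6079) and Igfbp3 (-0.2882). Mucl3 and Tff1 passed the threshold in the turned direction (adjusted p = 0.0359 and 2.507e-04), and Spp1 and Igfbp3 did not (0.0898 and 0.856). There the ratios of Cym after depletion and of Pyy, Sdk1 and Slc11a1 before it were 0. Scgb1a1 stood at 0.0361 with 1 matched cell per member, Ctla2a at 0.1952 and Fabp4 at 0.6487 with top cells left out, Fabp4 at 0.4308 matched on genes, and Spp1 ran from -0.365 to 1.8812 as libraries were left out. The difference in the Dlk1 and Bpifa1 share in the vehicle library after depletion was 1.423 points against all Cre-zero cells. The causes of these changes were not tested. Over the alternatives, values of named genes against matched cells kept their direction and side of the threshold 329 times, lost the threshold 88 times, gained it 15 times and turned direction 9 times. The 4 libraries as blocks pair members with matched cells within each library; in that fit 0 genes were called higher and 11 lower. Between treatment labels no paired analysis was possible because each group holds 1 library. At 1 or 2 Cre UMIs per member, depth limits who is counted as a member.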
